A study of Mus musculus with 9 samples.

Results

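Acyl-CoA thioesterases split a fatty acyl-CoA into free fatty acid and coenzyme A, the reverse of the step by which acyl-CoA synthetases activate fatty acids. The Acot enzymes sit in the cytosol, the mitochondria and the peroxisomes, and in the liver they are known for setting the pools of acyl-CoA and free coenzyme A while fat is made or burned. Several of them are known targets of PPAR alpha, the fatty acid-sensing nuclear receptor that NCoR and SMRT, corepressor proteins, can hold in check. The 7 genes taken here were Acot1 and Acot12 of the cytosol, Acot2 and Acot13 of the mitochondria, and Acot3, Acot4 and Acot8 of the peroxisome. They were matched by gene symbol, and where a gene had more than 1 probe set the one used was chosen by the highest mean over the 9 arrays. Of the 7 genes 6 were measured, among 22180 genes in all. Acot8, which acts on many acyl-CoAs in the peroxisome, had 0 probe sets of its own symbol alone and was not analysed here. The genes were proposed with earlier results on these arrays known, in which Acot1 and Acot2 were already called in double KO livers, so their p-values are not independent evidence about the family.

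Livers came from 3 double KO mice with liver-specific loss of SMRT and NCoR, 3 SMRT KO mice with liver-specific loss of SMRT, and 3 control mice carrying SMRT and NCoR fl/fl alleles. All 9 were euthyroid females 7 to 9 weeks old, of a 129SV/B6 mixed background, on standard chow, with 1 array per mouse. No group lacking NCoR alone was among the samples, and neither the driver of the deletion nor the NCoR alleles of the SMRT KO mice are given in the sources used here, so loss of a corepressor and any difference of background between groups cannot be told apart. The levels of the deleted genes are not reported here.

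Arrays of 1 group correlated at 0.987 to 0.992, and arrays of different groups at 0.983 to 0.989. The 10 hepatocyte markers were bright, with a mean log2 value of 12.76 to 12.81 over double KO, 12.87 to 12.94 over SMRT KO and 12.89 to 12.97 over control arrays. The double KO range thus lay below the other 2. Serpina1a fell by 0.47 on the log2 scale in double KO against control livers (adjusted p = 0.0251). Against SMRT KO livers it was lower by 0.36 and did not pass (adjusted p = 0.061). The other 9 did not pass against control, with Apoa1 (0.01) and Fgb (0.02) above 0 and Tat the lowest at -0.23. The 10 macrophage markers averaged 8.39 to 8.57 in double KO, 8.60 to 8.85 in SMRT KO and 8.38 to 8.61 in control livers. For the 5 adipocyte markers the ranges were 5.64 to 5.74, 5.54 to 5.59 and 5.53 to 5.89 in the same order of groups, below the median gene at 6.37. Neither list had a marker past limma's test, with 0 calls in each of the 3 comparisons, in which at most 1.19% of all genes were called. Yet all 10 macrophage markers had higher means in SMRT KO than in control livers (median log2 fold change 0.27). Of them 5 had an unadjusted limma p under 0.05, beside 6% of all genes. In double KO against SMRT KO livers 0 of the 10 had a log2 fold change above 0 (median -0.23). The double KO range of these markers lay below that of SMRT KO. Of 7 stellate cell markers, at 8.21 to 8.59 in double KO, 8.48 to 8.69 in SMRT KO and 8.51 to 8.65 in control livers, Lrat fell by 1.80 in double KO against control (adjusted p = 0.000397). The other 6 did not pass, with 3 above 0 (Col3a1 the highest at 0.31) and 3 below (Des the lowest at -0.19). The 4 cholangiocyte markers averaged 6.37 to 6.53 in double KO, 6.32 to 6.42 in SMRT KO and 6.17 to 6.36 in control livers, so the double KO range lay above that of control, and 0 of them were called in any comparison. Endothelial markers (8.73 to 9.05, 8.84 to 9.03 and 8.74 to 8.84) and lymphocyte markers (5.69 to 5.86, 5.75 to 5.88 and 5.69 to 5.77) had overlapping ranges in double KO, SMRT KO and control livers, with 0 calls. The part of cell makeup in the results below was not tested, and in whole liver fewer cells of a type and less RNA per cell cannot be told apart.

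Acot2, Acot1, Acot4, Acot3, Acot5 and Acot6 stand next to each other in this order on mouse chromosome 12, with 0 other protein-coding genes of RefSeq between them. Windows of the 250 bases before the gene start, from RefSeq on GRCm38.p6, were at hand for 11 of the 13 Acot genes looked up. The 3 shown are those of Acot1 and Acot2, the 2 members that rose, and of their neighbour Acot4, which did not pass the test. All 3 lie on the plus strand, and capitals mark a match to the nuclear receptor half-site AGGTCA on either strand.
Acot1 (chr12:84009252-84009501): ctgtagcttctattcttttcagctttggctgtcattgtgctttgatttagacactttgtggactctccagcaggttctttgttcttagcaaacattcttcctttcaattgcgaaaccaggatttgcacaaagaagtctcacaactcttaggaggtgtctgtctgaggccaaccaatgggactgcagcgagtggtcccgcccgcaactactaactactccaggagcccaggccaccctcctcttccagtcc
Acot2 (chr12:83987611-83987860): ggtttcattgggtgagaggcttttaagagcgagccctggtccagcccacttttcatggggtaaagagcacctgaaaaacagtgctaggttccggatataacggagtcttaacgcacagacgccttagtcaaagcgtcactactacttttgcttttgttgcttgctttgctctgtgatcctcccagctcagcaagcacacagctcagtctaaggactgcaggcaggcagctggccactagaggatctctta
Acot4 (chr12:84038129-84038378): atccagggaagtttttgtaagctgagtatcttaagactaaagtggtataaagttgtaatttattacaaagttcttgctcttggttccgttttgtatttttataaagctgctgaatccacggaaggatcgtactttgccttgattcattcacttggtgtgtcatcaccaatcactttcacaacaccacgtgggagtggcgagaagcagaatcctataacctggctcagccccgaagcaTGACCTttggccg

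The half-site was found in 0 places in the windows of Acot1 and Acot2 and once in that of Acot4, as the reverse complement, 13 bases before the gene start. Among the other members' windows Acot12 held 1 match and Acot3 and Acot8 held 0. Over 32851 promoter windows of this length, 14% held at least 1 match. The direct repeat AGGTCANAGGTCA, the arrangement that PPAR alpha is known to bind with its partner RXR, and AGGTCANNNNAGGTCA, known for thyroid hormone receptors, matched in 0 Acot windows and in 0.0335% and 0.0152% of all windows. Only exact matches were counted, so a site with other letters would be missed. With so few matching windows anywhere, 0 repeats in the Acot windows tells little. These letters can also lie outside the windows. The windows of Acot1 and Acot2 were 47.6% identical in a global alignment, within the 43.6% to 54.4% seen over 55 pairs of Acot windows.

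In double KO livers the message of Acot1, which hydrolyses long-chain acyl-CoA in the cytosol, was 4.01 times that of control livers. Acot1 read 9.50, 9.25 and 9.87 in the double KO livers, 8.29, 7.88 and 7.50 in the SMRT KO livers and 7.70, 7.61 and 7.30 in the control livers (log2 values). All 3 double KO values lay above all other values, while the SMRT KO and control values overlapped. The log2 fold change against control was 2.00 with a standard error of 0.212, a 95% interval of 1.53 to 2.48 and an adjusted p of 0.00357. It was the 13th highest of 22180 genes. Against SMRT KO livers the rise was 3.14-fold (log2 fold change 1.65, interval 1.17 to 2.13, adjusted p = 0.007).

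Acot2, the thioesterase of the mitochondrial matrix and a close sequence relative of Acot1, rose 2.70-fold in double KO livers. Its values were 9.52, 9.72 and 10.22 in double KO, 8.76, 8.76 and 8.61 in SMRT KO and 8.43, 8.54 and 8.18 in control livers. The 3 groups did not overlap for this gene, and SMRT KO livers lay between the others. The log2 fold change of double KO against control was 1.44 (standard error 0.165, interval 1.06 to 1.81, adjusted p = 0.0054). Against SMRT KO it was 1.11 (interval 0.74 to 1.48, adjusted p = 0.0147). That call was lost when double KO replicate 2 was left out (adjusted p = 0.0573), when SMRT KO replicate 1 (0.057) or 3 (0.0571) was, and with only these 2 groups in the fit (0.0579). Acot1 and Acot2 are near copies in their coding parts, so a probe of one can bind the message of the other. The probe sequences were not used here, and how much of each value is shared was not tested.

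The other cytosolic and mitochondrial member did not pass the test in any of the 3 comparisons. Acot12, which hydrolyses acetyl-CoA in the cytosol, read 12.03, 12.03 and 12.25 in double KO, 12.04, 11.84 and 11.83 in SMRT KO and 12.04, 12.23 and 12.05 in control livers. Its log2 fold change in double KO against control was -0.0036, with an interval of -0.21 to 0.21 (adjusted p = 0.995), so a change as large as that of Acot1 or Acot2 lay outside its interval. Acot13, a mitochondria-associated thioesterase also called Them2, read 10.30, 10.29 and 10.04 in double KO, 10.04, 10.01 and 10.08 in SMRT KO and 9.98, 9.86 and 10.03 in control livers. The lowest double KO liver lay just above the highest control liver. The log2 fold change was 0.25 (interval 0.06 to 0.44, adjusted p = 0.288) and did not pass.

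The peroxisomal pair had higher means in double KO livers, and neither gene passed the test. Acot3, which acts on long-chain acyl-CoA, read 9.71, 9.46 and 9.98 in double KO, 9.09, 9.37 and 8.64 in SMRT KO and 9.38, 8.31 and 9.15 in control livers. All double KO values were above all others, with a log2 fold change against control of 0.77 (interval 0.15 to 1.40, adjusted p = 0.338). Control replicate 2 was the low value. Without it the log2 fold change was 0.45 (adjusted p = 0.504). Acot4, known in the mouse as a peroxisomal succinyl-CoA thioesterase, read 9.66, 9.62 and 10.02 in double KO, 9.46, 9.52 and 9.27 in SMRT KO and 9.57, 9.00 and 9.53 in control livers, and again the double KO values did not overlap the rest. Its log2 fold change of 0.40 (interval 0.04 to 0.77, adjusted p = 0.402) was 0.22 without control replicate 2 (adjusted p = 0.601). The other Acot4 probe set, passed over for its lower mean, gave 0.38 (standard error 0.0969, adjusted p = 0.165).

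**Figure D1:**
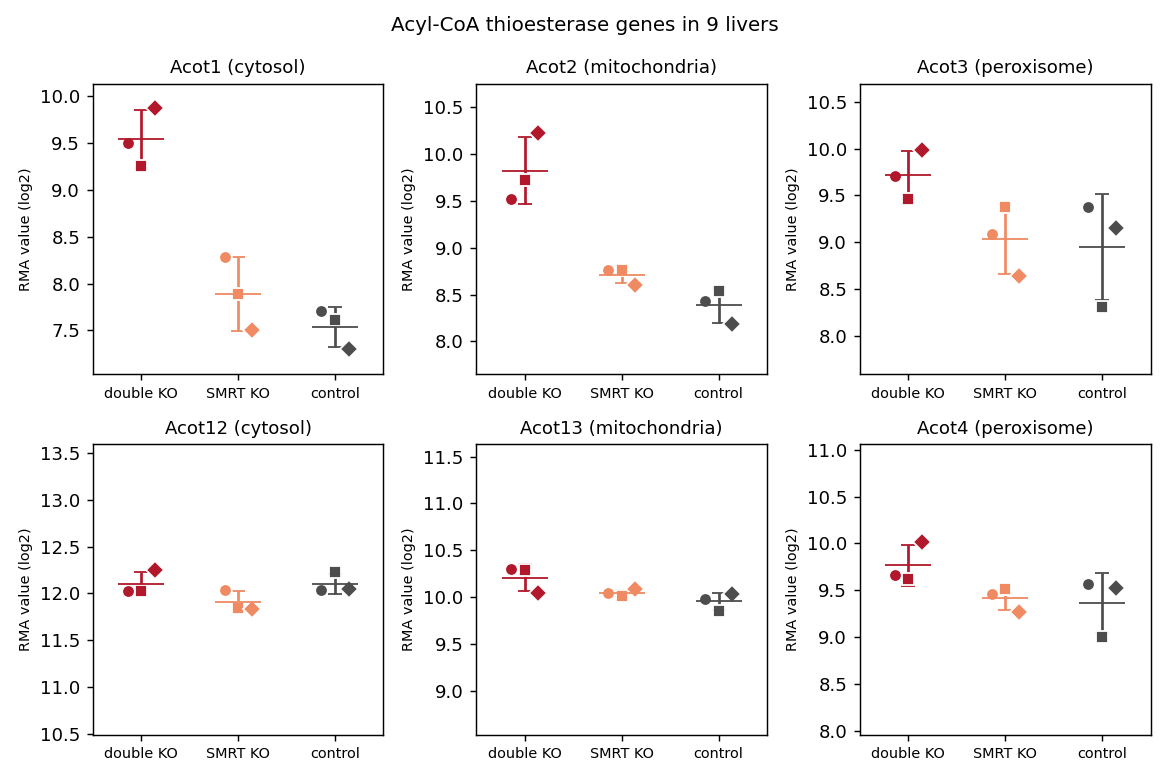
Log2 expression values (y axis, RMA) of the 6 measured thioesterase genes in double KO, SMRT KO and control livers (x axis). Each point is 1 mouse (circle, square and diamond for replicates 1, 2 and 3), the long bar is the group mean and the whisker its SD (n = 3); every panel spans the same log2 range. Acot1 and Acot2 stand apart in double KO livers, Acot3 and Acot4 are spread by control replicate 2, and Acot12 and Acot13 stay within a narrow band.

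By compartment, the cytosol held 1 gene that rose and 1 that did not pass (log2 fold changes of 2.00 and -0.0036), the mitochondria likewise (1.44 and 0.25), and the peroxisome 2 that did not pass (0.77 and 0.40). So 2 of 6 members were called in double KO against control, both higher, beside 0.843% of all 22180 genes called and 0.523% called higher. The median log2 fold change was 0.59 over the 6 members and 0.0036 over all genes. The members were chosen with the calls of Acot1 and Acot2 known, so this gap is not independent evidence about the family. Without control replicate 2 the members' median was 0.34, since it lies between Acot3 and Acot4. In 5 of 6 members all 3 double KO values lay above all 3 control values, as in 7.73% of all genes. The call of Acot1 and that of Acot2 held in all 17 alternatives run, with adjusted p up to 0.0221 and 0.0389. Whether the change of one member differed from that of another was not tested.

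Loss of SMRT alone was asked in SMRT KO against control livers. Among the 6 members 0 were called by limma, and 0 had an unadjusted p under 0.05. Over all genes 1 was called, 0.00451%, with 1331 at an unadjusted p under 0.05. The log2 fold change was 0.35 for Acot1 (interval -0.12 to 0.83, adjusted p = 0.906) and 0.33 for Acot2 (interval -0.05 to 0.70, adjusted p = 0.862). The value of Acot1 was 0.15 without SMRT KO replicate 1, 0.55 without SMRT KO replicate 3 and 0.23 without control replicate 3, and it passed in none of these fits. These intervals allow up to a 1.78-fold rise of Acot1 and a 1.62-fold rise of Acot2. For the other 4 members the values were 0.09 for Acot3, 0.05 for Acot4, 0.09 for Acot13 and -0.20 for Acot12. Only Acot2 had all 3 SMRT KO values above all 3 control values, 1 of 6 members beside 3.8% of all genes.

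The step from SMRT KO to double KO, in which NCoR is lost as well, gave 2 called members of 6, Acot1 and Acot2, both higher. Over all genes 1.19% were called and 0.748% were called higher. The 6 log2 fold changes ran from 0.17 for Acot13 to 1.65 for Acot1, with a median of 0.52, against 0.0017 over all genes. All 3 double KO values were above all 3 SMRT KO values in 4 of 6 members (Acot1, Acot2, Acot3 and Acot4), and in 7.54% of all genes. The double KO arrays enter both this comparison and the one with control, so the 2 are not separate evidence.

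**Figure D2:**
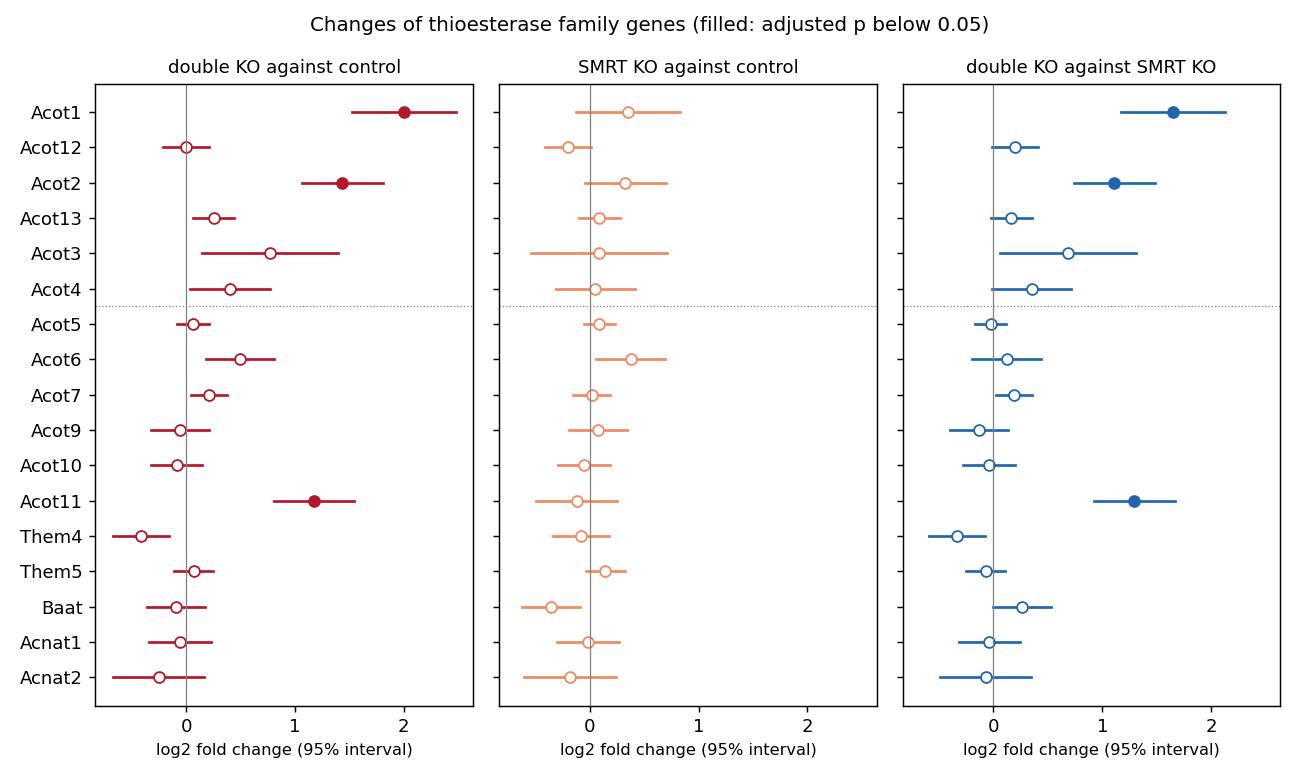
Log2 fold changes (x axis) with 95% intervals from limma for the 6 measured members (above the dotted line) and 11 further genes of the family (below it), in 3 comparisons. Filled points passed an adjusted p of 0.05: Acot1, Acot2 and Acot11 in both comparisons with double KO livers, and 0 genes in SMRT KO against control.

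Across mice, Acot1 and Acot2 followed each other closely (Pearson r = 0.97 over 9 arrays), and so did Acot3 and Acot4 (r = 0.97). After each group's mean was taken away, r was 0.67 for Acot1 with Acot2 and 0.94 for Acot3 with Acot4. Acot3 and Acot4 thus varied together within groups too, and their r was 0.86 without control replicate 2. Whether their probes bind each other's message was not tested, as for Acot1 and Acot2. Acot2 and Acot13 ran opposite within groups (r = -0.95, or -0.84 without double KO replicate 3) although both had higher means in double KO livers. These are descriptions of 15 pairs over 9 arrays normalized together. Exact ties between arrays occur in the deposited values, as in Acot2 for SMRT KO replicates 1 and 2. At least 1 tie was found for 51.4% of all genes and for 2 of the 6 members (Acot2 and Acot13), and its part in the spread was not tested.

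Next to the cluster on the chromosome, no measured gene passed the test. The measured flanking genes on one side, Numb and Riox1, had log2 fold changes of -0.11 and 0.06 in double KO against control livers, and those on the other side, Dnal1, Pnma1 and Mideas, had 0.05, 0.26 and 0.10. Of these 5 genes 0 passed limma's test, with adjusted p of 0.396 to 0.895, where 0.843% of all genes were called. In 1 of them (Pnma1) the interval was above 0, from 0.03 to 0.49. Inside the cluster the log2 fold changes in order were 1.44 (Acot2), 2.00 (Acot1), 0.40 (Acot4), 0.77 (Acot3), 0.06 (Acot5) and 0.49 (Acot6). Acot5, a peroxisomal enzyme, averaged 4.13, at the upper edge of the array medians of receptor genes of smell (3.73 to 4.13), which liver hardly uses, and is not shown to be above background. Acot6, also of the peroxisome, read 6.19, 6.27 and 6.16 in double KO, 5.92, 5.96 and 6.37 in SMRT KO and 5.46, 5.93 and 5.74 in control livers. Its log2 fold change was 0.49 in double KO (interval 0.18 to 0.81, adjusted p = 0.205) and 0.37 in SMRT KO livers (interval 0.06 to 0.69, adjusted p = 0.808), each against control. The control mean of Acot6, 5.71, was below 5.96, the 95th percentile of the receptor genes of smell, so it is not shown to be above background there.

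**Figure D3:**
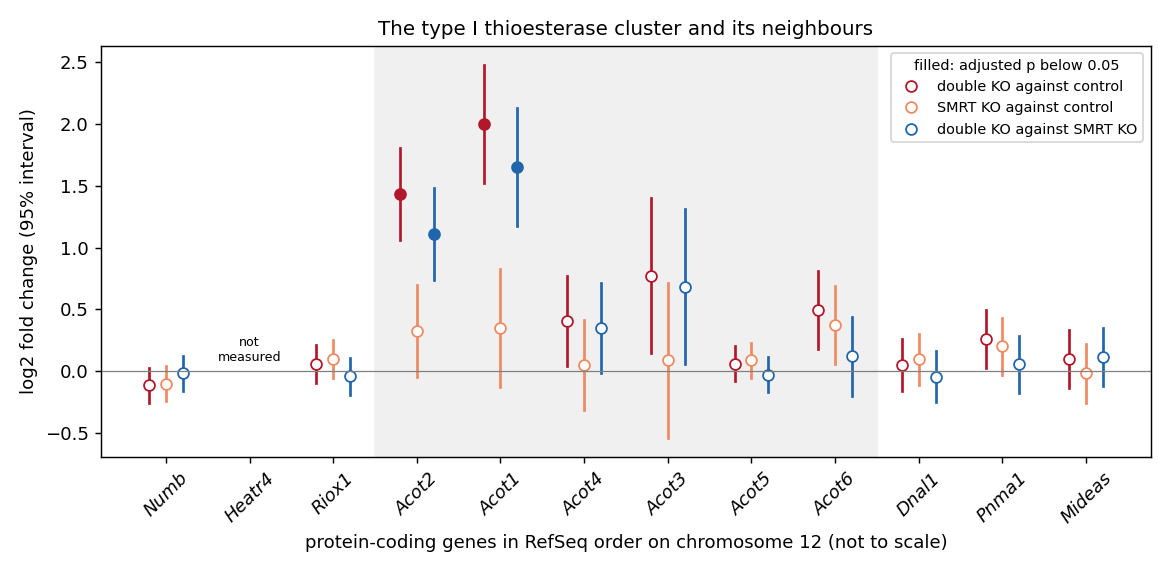
Log2 fold changes with 95% intervals (y axis) of the 6 type I thioesterase genes on chromosome 12 (grey band) and up to 3 protein-coding neighbours on each side, in RefSeq order (x axis, not to scale). Acot2 and Acot1 carry the filled points (adjusted p below 0.05). The neighbours lie between -0.11 and 0.26 in double KO against control, and Dnal1 and Pnma1 are not shown to be above background.

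The rest of the thioesterase family was measured at 11 genes, of which 1 rose, 0 fell and 10 did not pass in double KO against control livers, with a median log2 fold change of -0.06, where 0.523% of all genes were called higher. The gene that rose was Acot11, a cytosolic long-chain thioesterase also called Them1 and known from brown fat. It read 7.98, 8.27 and 8.17 in double KO, 7.11, 6.92 and 6.50 in SMRT KO and 7.06, 6.71 and 7.13 in control livers. The double KO values stood apart, and the other groups overlapped. Acot11 was 2.26-fold higher against control (log2 fold change 1.17, standard error 0.165, adjusted p = 0.0141) and 2.45-fold higher against SMRT KO (1.29, adjusted p = 0.00696). The call against control was lost without double KO replicate 2 (adjusted p = 0.0795) or 3 (0.0624). In SMRT KO against control livers its log2 fold change was -0.12 (adjusted p = 0.954).

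Among the others Them4, a mitochondrial thioesterase, had the lowest log2 fold change, -0.42 in double KO against control (interval -0.68 to -0.16, adjusted p = 0.189). Its double KO values, 7.80, 7.71 and 7.96, were all below the control values of 8.20, 8.05 and 8.47. Acot7, a cytosolic enzyme known mainly from brain, had 0.21 (adjusted p = 0.33). The mitochondrial Acot9 and Acot10 had -0.06 and -0.09, and Them5 had 0.07. Acot9 averaged 5.92 over the 9 arrays, below 5.96, the 95th percentile of the receptor genes of smell, and is not shown to be above background. Them5, at 5.98, lay just above that percentile. Baat, which joins bile acids to taurine or glycine and belongs to the same protein family as the type I thioesterases, had -0.09 in double KO and -0.35 in SMRT KO livers (interval -0.62 to -0.09, adjusted p = 0.753). Acnat1 and Acnat2, acyltransferases related to Baat, had -0.06 and -0.25. All of these missed the threshold in each of the 3 comparisons.

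Genes that handle acyl-CoA around the thioesterases were counted by list. Of 19 acyl-CoA synthetases listed, which make the thioesterases' substrates, 16 were measured, and Acsl1, Acsl3 and Acsm3 were not. Among the 16, 0 were called by limma in double KO against control, where 0.843% of all genes were called. At an unadjusted p under 0.05 there were 5, beside 10.8% of all genes, and the median log2 fold change was 0.07. The highest was Acss2, the cytosolic acetyl-CoA synthetase, at 0.97 (adjusted p = 0.12), named after its values were seen. Of 17 genes of coenzyme A synthesis, transport and breakdown 16 were measured (not Pank2), and 0 were called. Of the 16, 3 had an unadjusted p under 0.05, and the median was 0.09. In double KO against SMRT KO livers, where 1.19% of all genes were called, Acss3 rose by a log2 fold change of 0.54 (adjusted p = 0.0162), and so did Pank1, a pantothenate kinase at the start of coenzyme A synthesis, by 0.40 (0.0148), and Coasy, which completes it, by 0.34 (0.0344). Against control, the log2 fold changes in double KO and SMRT KO livers were 0.26 and -0.27 for Acss3, 0.26 and -0.14 for Pank1, and 0.25 and -0.09 for Coasy, and none of these passed. These 3 were also named after their values were seen.

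In the carnitine system 9 of 10 genes were measured (not Cpt1b), with a median log2 fold change of 0.02 in double KO against control livers. Of these, 1 rose and 0 fell, where 0.523% of all genes were called higher. The gene was Crat, which moves short acyl groups between coenzyme A and carnitine, with 9.94, 10.22 and 10.40 in double KO, 9.19, 9.15 and 8.91 in SMRT KO and 8.55, 9.53 and 8.52 in control livers. Its log2 fold change was 1.32 (standard error 0.247, adjusted p = 0.0486). The call was lost without any single mouse other than control replicate 2 (adjusted p up to 0.18), with only the 2 groups in the fit (0.14), with the replicate block (0.0586) and with every probe set as its own row (0.0504). With the median of its probe sets Crat had a log2 fold change of 0.80 (adjusted p = 0.0122). Cpt1a, the gate of mitochondrial fatty acid entry, had -0.11 (adjusted p = 0.597) and Crot, which handles medium chains in the peroxisome, -0.17 (0.786), both named after their values were seen.

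Of 24 measured PPAR alpha targets 4 rose and 0 fell in double KO against control livers, with a median log2 fold change of 0.08, where 0.523% of all genes were called higher. Ehhadh, a peroxisomal oxidation enzyme, rose by 1.59 (adjusted p = 0.00357), with 12.99, 12.93 and 12.96 in double KO against 11.30, 11.76 and 11.03 in control livers. Acaa1b, a peroxisomal thiolase, rose by 1.34 (adjusted p = 0.0114), Plin2, a lipid droplet coat protein, by 0.64 (0.016) and Pdk4, a brake on glucose oxidation, by 2.36 (0.0281). The 20 that did not pass ran from -0.35 (Creb3l3, a transcription factor, 0.237) to 1.24 (Cyp4a31, a fatty acid hydroxylase, 0.221), both named after their values were seen as the ends of the range. Of all 24, 17 were above 0 and 9 had an unadjusted p under 0.05, beside 10.8% of all genes. Ehhadh kept its call without each mouse in turn. Acaa1b lost it without any of the double KO mice (at most 0.061 as adjusted p), and Plin2 without double KO replicate 1 or 3 or control replicate 1 or 3 (up to 0.0694). Pdk4 lost it without any of the double KO mice, SMRT KO replicate 3 or control replicate 1 or 3 (up to 0.12), with only the 2 groups in the fit (0.0825) and with the replicate block (0.0693).

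In SMRT KO against control livers 0 genes of these 4 lists or of the rest of the family were called by limma. At an unadjusted p under 0.05 there were 2 synthetases, 3 carnitine genes, 3 coenzyme A genes, 4 PPAR alpha targets and 2 family genes, beside 6% of all genes. The medians were -0.10, -0.13, -0.03, -0.10 and -0.02 in the same order, against 0.09 for the 6 members (-0.05 without control replicate 2) and 0.0009 over all genes. Cpt2, Cpt1a, Slc25a20 and Vnn1 are in more than 1 list, so the lists are not separate.

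**Figure D4:**
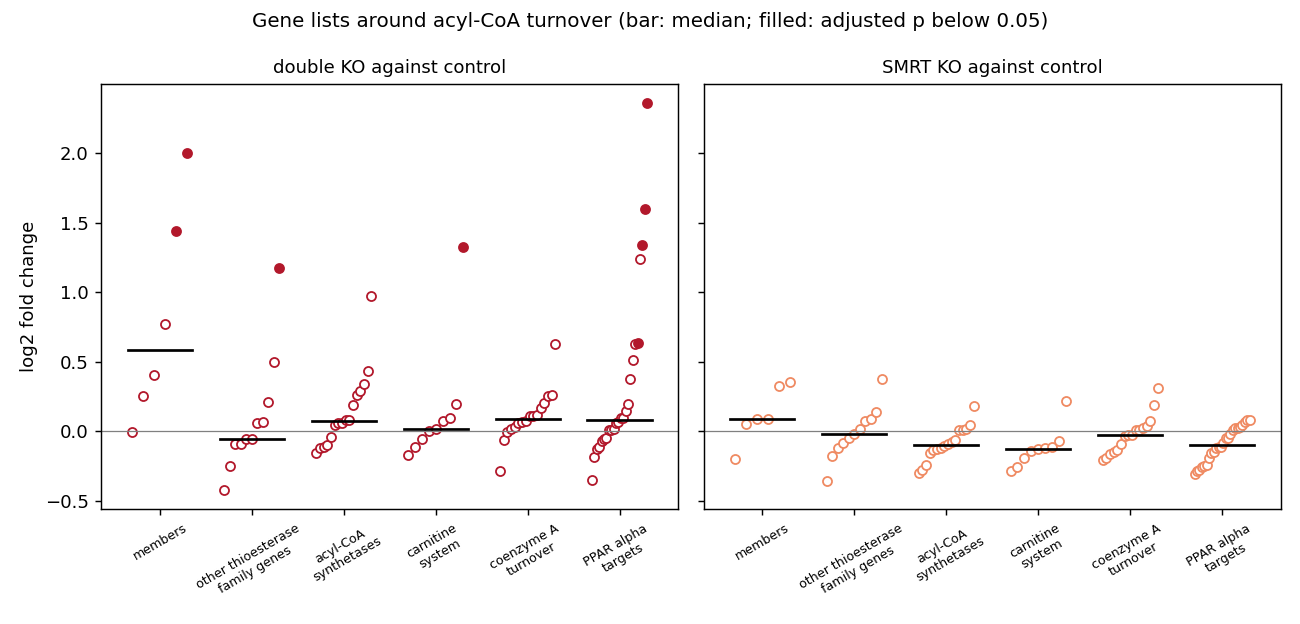
Log2 fold changes (y axis) of the 6 members and of 5 gene lists (x axis) in double KO against control (left) and SMRT KO against control livers (right). Each point is a gene, bars are medians and filled points passed an adjusted p of 0.05. On the left the members' median is 0.59 (0.34 without control replicate 2) and those of the lists lie between -0.06 and 0.09. The members were chosen with the calls of Acot1 and Acot2 known.

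The genes outside the family whose values were most like those of Acot1 over the 9 arrays, among 12908 genes with a mean log2 value of at least 6, were Akr1c18 (Pearson r = 0.98), Pla2g6 (0.98), Dnah11 (0.97), St3gal6 (0.96) and Acaa1b (0.96). For Acot2 they were St3gal6 (0.98), Pla2g6 (0.97), Rab9 (0.96), Akr1c18 (0.96) and Tor1a (0.95). Akr1c18, a steroid dehydrogenase, read 8.74, 8.26 and 9.11 in double KO, 6.74, 6.04 and 6.36 in SMRT KO and 5.94, 5.33 and 5.15 in control livers. Its 3 groups did not overlap, but its group means were 8.70, 6.38 and 5.47 in the same order. It thus reached the mean of 6 only through the double KO livers, and its control mean was below 5.96, the 95th percentile of the receptor genes of smell. Pla2g6, a phospholipase that frees fatty acids from phospholipids, read 9.16, 8.99 and 9.42 in double KO, 8.62, 8.29 and 8.42 in SMRT KO and 8.21, 8.35 and 8.12 in control livers. Its double KO values stood above the rest, and SMRT KO and control livers overlapped. The likeness rests mostly on the step between double KO and the other livers, which these genes share with Acot1 and Acot2 by the way they were picked.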

How the data were processed

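Liver RNA of 9 mice (200 ng of total RNA each) was hybridised to Affymetrix whole-transcript arrays, 1 per mouse. The deposited table holds log2 values made by the authors with RMA, per the submitters' processing notes (version unknown). RMA subtracts background, quantile-normalizes arrays and summarises probes. Array medians were 5.96 to 6.02. Arrays carry no read depth, so the number of arrays limits precision. Each column was matched to its sample by accession and each group taken from the titles.

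The table has 41345 probe sets, of which the platform annotation gives 1 gene symbol to 23521, several to 1814 and lists no entry for 16010. Single-symbol probe sets were kept, 1 per gene by the highest mean, leaving 22180 genes, with no filter on level. The symbols of all 17 family genes measured matched RefSeq (GRCm38.p6) by Entrez ID.

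One model over the 9 arrays was fitted to all genes (limma 3.58.1 under R 4.3.3, moderated two-sided tests), with 6 residual and 3.36 prior degrees of freedom. P-values were adjusted by Benjamini-Hochberg over all genes per comparison, and genes below 0.05 were called; every adjusted p is from limma. An exact permutation test of 3 against 3 cannot go below 0.1, so none was used. The steps were tested on simulated data. Errors are standard errors from the model or SDs over 3 mice. The members and lists were chosen with earlier results of these data known. Named were all members and measured family genes, the members of each list called in double KO against control (at most 8 by smallest p), the 5 genes most like Acot1 and Acot2, and the chromosome neighbours. The neighbours and the list genes that were not called in that comparison were added after their values were seen. Genes without a single-symbol probe set were left out. Alternatives were cyclic loess, leaving out dim genes, the median of a gene's probe sets, every probe set as its own row, only 2 groups in the fit, a trended robust prior, array weights, the replicate block, and leaving out each mouse. Promoter windows were searched with Python 3.11.15 and aligned with Biopython 1.88.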

Additional observations from a re-analysis of the deposited data

How the results depend on the processing

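The count of called members stayed at 2 in double KO against control and at 0 in SMRT KO against control under all 17 alternatives. In double KO against SMRT KO it was 1 with only the 2 groups in the fit and 1 to 2 when a mouse was left out, with Acot2 the call lost. Over all genes, leaving out a mouse gave 61 to 179 calls in double KO against control (187 with all mice), 0 to 23 in SMRT KO against control (1) and 101 to 234 in double KO against SMRT KO (263). Such fits have fewer mice. With only the 2 groups in the fit these counts were 109, 0 and 124, array weights gave 285 in the first, and leaving out dim genes gave 2 in SMRT KO against control. With the replicate block the counts were 152, 2 and 195, and no call of a member changed, while Crat (adjusted p = 0.0586) and Pdk4 (0.0693) lost theirs in double KO against control. Deviations from the group means correlated at -0.0845 to 0.117 between same-numbered mice. Double KO and SMRT KO mice of replicates 1 and 3 correlated best with the control mouse of their number, and those of replicate 2 did not. No double KO mouse correlated best with the SMRT KO mouse of its number. With 3 mice per group this check cannot settle whether the numbers pair the mice. Signs turned only where values were near 0. Acot12 in double KO against control had 0.0108 after cyclic loess and -0.0784 to 0.0576 when a mouse was left out. In SMRT KO against control, leaving out a mouse gave -0.23 to 0.30 for Acot3, -0.13 to 0.15 for Acot4 and -0.25 to 0.0505 for Acot11. The causes were not tested.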
